A study of Mus musculus with 4 samples.

Results

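The cells described here are liver immune cells that carried transcripts of the Fc receptor gene Fcgr4 together with at least 1 of Negr1, Sox5, Itgad and Fcrl5, and no transcript of the CD3 or CD8 genes. They were chosen by raw counts of unique molecular identifiers (UMIs, each a counted mRNA molecule): Fcgr4 at 1 or more, the sum of the other 4 genes at 1 or more, and Cd3d, Cd3e, Cd3g, Cd8a and Cd8b1 all at 0. The rule was applied to cells with 600 to 6000 detected genes and at most 5% mitochondrial UMIs, and 861 of 36286 such cells passed it, out of 39121 cells in the data. The study asked how loss of the microRNA miR-146a and of the chemokine Ccl5 shapes immune cells in a mouse model of liver cancer, and CD45+ cells were sorted from liver for 5-prime single-cell RNA sequencing. All mice were female and on the C57BL/6 strain. Of the 4 libraries, 1 came from untreated wild-type (WT) mice aged 8 weeks, called young WT, and 3 came from mice aged 36 weeks that had received 25 mg/kg diethylnitrosamine (DEN) at day 14 and a 60% choline-deficient high-fat diet (CDHFD) from weaning at day 21. These 3 were WT, miR-146a-/-, and the double knockout of miR-146a and Ccl5 (DKO). The number of mice behind each library was not stated, and with 1 library per group no difference between groups could be tested. Values are given in the order young WT, treated WT, miR-146a-/- and DKO unless the libraries are named.

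Fcgr4 encodes a receptor for IgG2a and IgG2b that signals through the common gamma chain and is carried by patrolling monocytes, macrophages and neutrophils. Patrolling monocytes depend on the nuclear receptor Nr4a1 and survey the walls of small vessels, while Kupffer cells are the resident macrophages of the liver sinusoids and monocyte-derived cells can join them in injured liver. Negr1 encodes an adhesion molecule of the IgLON family known mainly from neurons, Sox5 a SoxD transcription factor, Fcrl5 an Fc receptor-like protein known mainly from B cells, Itgad the CD11d integrin subunit, and Pparg a nuclear receptor that senses fatty acids.

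The knockout of Ccl5 was checked before anything else. Ccl5 stood at 6174, 12544, 12496 and 65.4 UMIs per 1000000 UMIs (CPM) over all kept cells, so the DKO library had lost nearly all of this transcript. The members themselves held 4833, 249.5, 710.0 and 22.8 CPM of Ccl5. No gene of the miR-146 family was among those counted, so the deletion of miR-146a could not be checked the same way. Kept cells numbered 10283, 8329, 7824 and 9850, with medians of 6782, 8210, 7910 and 7558 UMIs. Cell barcodes shared by 2 libraries numbered 109 to 150 per pair, and 0 barcodes belonged to a member in both libraries of any pair.

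Members were counted in every library, but nearly all came from the 2 knockout libraries. There were 9, 12, 116 and 724 members, which is 0.0875% (0.0400 to 0.166), 0.144% (0.0745 to 0.252), 1.48% (1.23 to 1.78) and 7.35% (6.84 to 7.88) of kept cells. These and all later intervals are 95% intervals of counting error alone and hold nothing of the variation between mice. The DKO library therefore gave 84.1% of all members and the miR-146a-/- library 13.5%. The share in treated WT was 1.65 times that in young WT (0.694 to 3.90), in miR-146a-/- 10.3 times that in treated WT (5.68 to 18.6), and in DKO 4.96 times that in miR-146a-/- (4.08 to 6.02). Among kept cells without T cell UMIs the members made up 0.284%, 0.448%, 4.32% and 15.8%, so the order of the libraries was the same when the size of the T cell compartment was taken out. Genotype, mouse and library changed together here, and which of them set the share cannot be told apart.

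**Figure D1:**
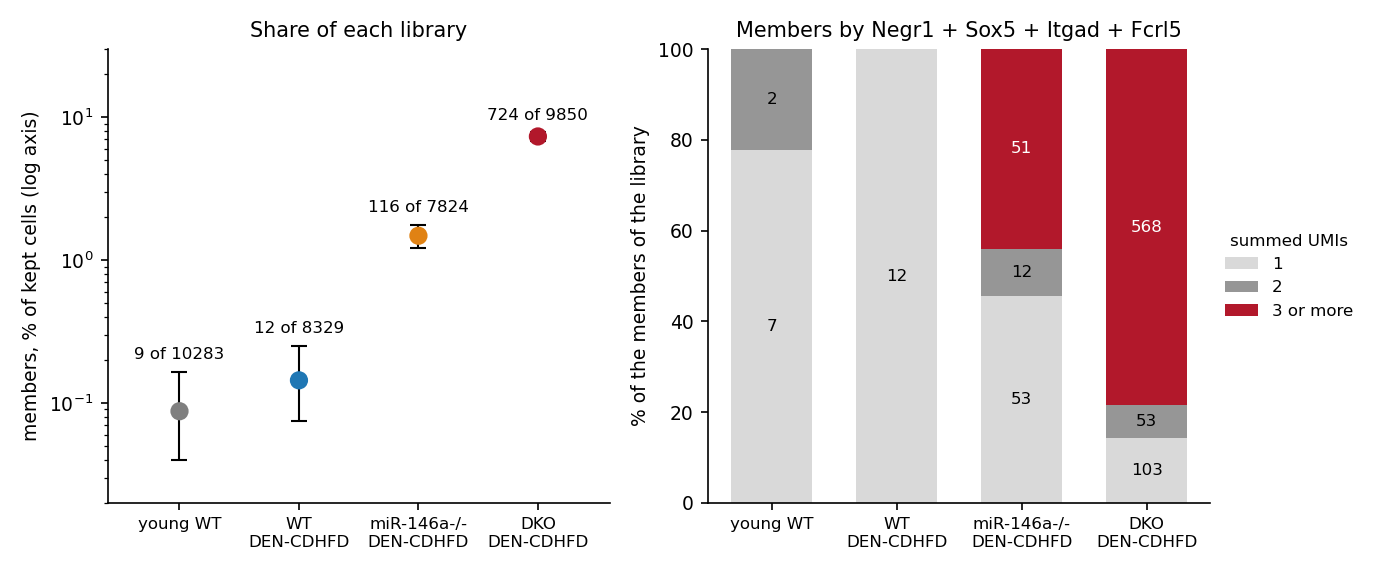
Share of kept cells that were members in each library, on a log axis with 95% counting intervals (left), and the members of each library by their summed UMIs of Negr1, Sox5, Itgad and Fcrl5 (right). Members rose from 9 of 10283 cells in young WT to 724 of 9850 in DKO, and 3 or more UMIs were seen only in 51 miR-146a-/- and 568 DKO members.

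Members differed in how much of the 4 genes they carried, which is description only because the rule chose on these genes. Cells with only 1 UMI summed over Negr1, Sox5, Itgad and Fcrl5 numbered 7, 12, 53 and 103, and those with 3 or more numbered 0, 0, 51 and 568. Members with 3 or more UMIs, called high members below, thus made up 44.0% of miR-146a-/- members and 78.5% of DKO members, or 0.652% (0.486 to 0.856) and 5.77% (5.31 to 6.25) of kept cells, and were absent from both WT libraries, where the upper limits were 0.0443% in treated WT and 0.0359% in young WT. All 4 genes were detected together in 0, 0, 19 and 275 members. Fcgr4 followed the same order, with 8 or more UMIs in 0, 0, 26 and 345 members. The members just inside the rule, with 1 UMI of Fcgr4 and 1 UMI of the 4 genes, numbered 5, 8, 19 and 32, and therefore over 50% of the members of each WT library rested on the fewest counts the rule allows. Just outside it were 96, 186, 629 and 1090 cells with Fcgr4 but none of the 4 genes, 403, 396, 358 and 542 with the 4 genes but no Fcgr4, and 28, 90, 167 and 553 that passed except for a CD3 or CD8 UMI. The constant genes of the T cell receptor, Trac, Trbc1 and Trbc2, were not barred, and 2, 2, 6 and 47 members had a UMI of them. In members with 1 UMI the gene was Sox5 in 4, Fcrl5 in 2 and Itgad in 1 cell of young WT, and Negr1 in 5, Itgad in 3, Fcrl5 in 3 and Sox5 in 1 cell of treated WT, so no gene of the 4 carried the WT members alone. Members in the WT libraries were also deep cells, with medians of 14140 and 14725.5 UMIs, against 6710 in miR-146a-/- and 5524 in DKO members. High members had medians of 6257 and 5313.5 UMIs and 2556 and 2210 genes, so their many counts of the 4 genes came from cells of ordinary depth.

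**Figure D2:**
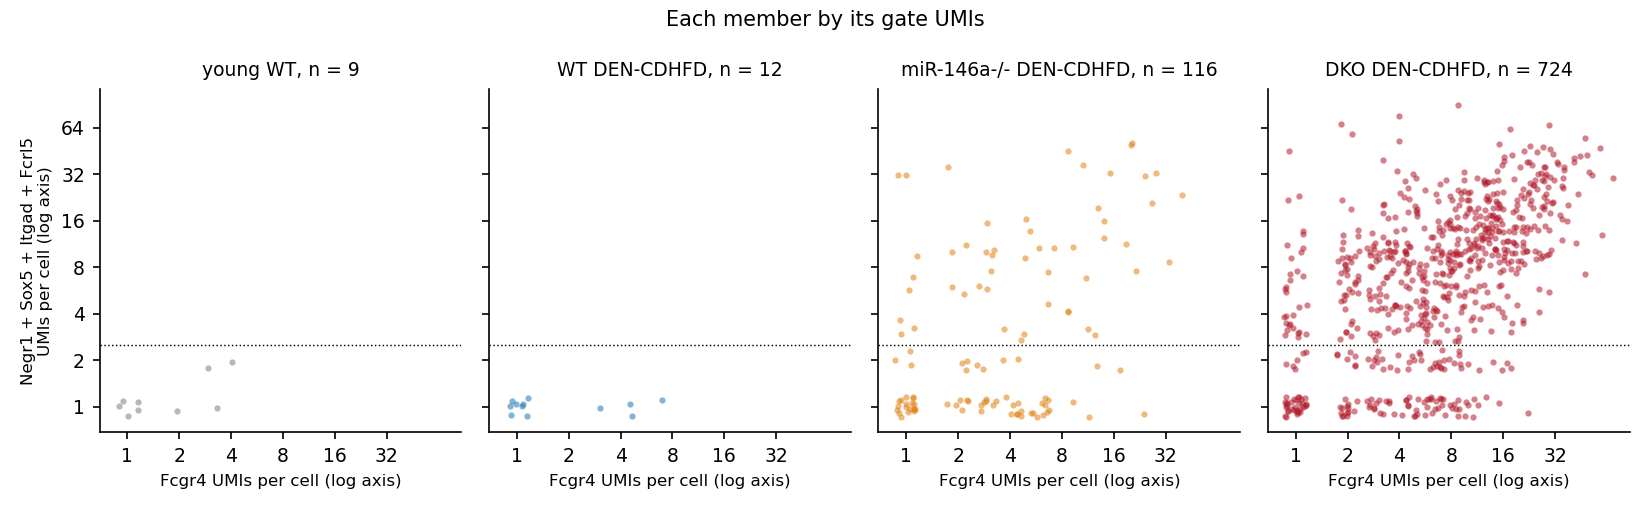
Each member by its Fcgr4 UMIs and its summed UMIs of Negr1, Sox5, Itgad and Fcrl5, on log axes with jitter and with a dotted line below 3 UMIs. The 21 WT members lay at 1 or 2 UMIs of the 4 genes, while DKO members reached a median of 8.

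How much of the 4 genes lay in the members is given here as description, because the rule chose on them. Members held 2.35%, 6.10%, 42.1% and 57.1% of all Negr1 UMIs of a library, from totals of 85, 82, 484 and 5084, and the cells that passed except for a T cell UMI held a further 38.8%, 45.1%, 48.1% and 36.6%. In DKO the members also held 51.4% of Sox5, 47.1% of Fcrl5, 43.2% of Itgad and 40.3% of Fcgr4 UMIs. Negr1 was detected in 11.1, 41.7, 29.3 and 66.9% of members, and in 11.1, 8.33, 17.9 and 47.5% after each cell was thinned to 2000 UMIs. B cells, with a UMI of both Cd79a and Ms4a1 and no CD3 or CD8 UMI, served as a rough measure of free RNA in droplets. Any members that met this were not left out, and cells joined in 1 droplet may be among them. In DKO 3.95% of these B cells had a UMI of at least 2 of Ace, Treml4, Adgre4 and Cd300e. Their medians were 5674.5, 7089, 7192.5 and 6880 UMIs. Negr1 was seen in 0, 0.159, 0.228 and 1.97% of B cells, or 0, 0, 0 and 1.07% after thinning. Since each member had to hold a UMI of 1 of the 4 genes and B cells did not, the rule set this difference and the shares are description only. Itgad was detected in 11.1, 25.0, 41.4 and 71.0% of members (11.1, 8.33, 23.6 and 49.4% thinned) and 0.658, 0.319, 0.685 and 2.12% of B cells (0.285, 0, 0 and 0.761% thinned). Sox5 and Fcrl5 are also genes of B cells: Sox5 was seen in 44.4, 8.33, 56.9 and 68.2% of members (11.1, 0, 37.7 and 46.1% thinned) and 7.52, 13.2, 18.5 and 12.1% of B cells (2.66, 5.02, 7.76 and 4.72% thinned), and Fcrl5 in 33.3, 25.0, 60.3 and 73.3% (11.1, 0, 31.1 and 48.1% thinned) and 14.6, 25.7, 29.9 and 24.4% (5.99, 9.56, 9.36 and 10.7% thinned). The thinned WT shares of members rested on 0 or 1 cells.

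Pparg was not used by the rule, but it was among the marker genes given with these cells, so its shares are description only. It was detected in 55.6, 41.7, 71.6 and 81.1% of members (33.3, 0, 42.5 and 56.1% thinned) against 0, 1.44, 1.83 and 2.28% of B cells (0, 0.486, 0.685 and 1.37% thinned), and in 45.8, 54.3, 54.4 and 56.3% of Fcgr4 cells with none of the 4 genes (21.3, 18.0, 22.8 and 25.4% thinned). High members showed Pparg in 80.4 and 87.9% of miR-146a-/- and DKO cells (55.1 and 63.9% thinned), and members with 1 UMI in 66.0 and 53.4% (34.0 and 21.3% thinned). At equal depth Pparg was thus seen more often in high members than in members with 1 UMI in both knockout libraries. This too is description, because the split used genes of the rule. Thinned members with 1 UMI lay above Fcgr4 cells with none of the 4 genes in miR-146a-/- (34.0 against 22.8%). In DKO they did not (21.3 against 25.4%).

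The promoters of Negr1, Fcgr4 and Pparg are shown because a match to 1 of the motifs below was found in these 3 and in no other marker gene with an entry. Sox5, Fcrl5 and Itgad were highest in DKO members as well, so level did not set these 3 apart. Whether the factors that bind these motifs regulate the genes was not tested. They are RefSeq sequences on mouse build GRCm38.p6, from 250 bases before to 50 after the transcript start. Entries matched 5 of the 6 marker genes, Itgad having none. Capitals mark matches, on either strand, to the PU.1 core GAGGAA, which reads TTCCTC on the other strand, and to the PPAR half-site AGGTCA, and the MAF half-site TGCTGAC was also looked for. The Negr1 window is chr3:156561544-156561843 on the + strand, with 1 PU.1 core 111 bases before the start.
Negr1: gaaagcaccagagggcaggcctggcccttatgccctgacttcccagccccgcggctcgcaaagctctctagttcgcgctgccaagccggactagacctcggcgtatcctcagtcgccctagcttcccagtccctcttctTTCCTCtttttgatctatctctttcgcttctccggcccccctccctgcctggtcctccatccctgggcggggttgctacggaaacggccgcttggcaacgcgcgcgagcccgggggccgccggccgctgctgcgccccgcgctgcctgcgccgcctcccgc
The Fcgr4 window is chr1:171018676-171018975 on the + strand, with 1 PU.1 core 22 bases before the start.
Fcgr4: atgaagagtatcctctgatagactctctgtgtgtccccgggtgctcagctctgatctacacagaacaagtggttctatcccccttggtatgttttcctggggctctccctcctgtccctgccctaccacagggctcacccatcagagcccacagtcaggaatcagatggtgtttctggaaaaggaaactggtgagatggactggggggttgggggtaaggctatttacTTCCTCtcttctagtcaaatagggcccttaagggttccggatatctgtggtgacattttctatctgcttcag
The second of 3 Pparg windows, the one with most matches, is chr6:115362099-115362398 on the + strand. It has a PU.1 core 240 bases and a PPAR half-site 9 bases before the start.
Pparg: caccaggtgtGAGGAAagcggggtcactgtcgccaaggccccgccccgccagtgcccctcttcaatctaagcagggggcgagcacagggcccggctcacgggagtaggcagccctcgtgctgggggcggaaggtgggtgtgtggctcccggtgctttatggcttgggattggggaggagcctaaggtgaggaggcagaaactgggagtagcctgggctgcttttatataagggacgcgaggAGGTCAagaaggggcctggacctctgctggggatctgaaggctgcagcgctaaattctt
The first Pparg window held a PPAR half-site 28 bases before its start, and no match was found in its last window or in Sox5 and Fcrl5. PU.1 cores are common: 28.3% of 32851 promoters held 1, against 16.3% for the PPAR half-site and 4.67% for the MAF half-site, so a match is a description and no sign of use. Among 20 windows of 15 matched genes leading the members, 7 held a PU.1 core, 3 a PPAR half-site and 0 a MAF half-site. Spi1, which encodes PU.1, stood at 619.6, 806, 806 and 804 CPM in members, a steady level across libraries.

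The microRNA removed in 2 of the groups is shown with its seed, bases 2 to 8, in capitals, as given by RefSeq for GRCm38.p6 at chr11:43374435-43374456 on the - strand.
mmu-miR-146a-5p: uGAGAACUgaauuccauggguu
Its best known targets encode the kinase Irak1 and the adaptor Traf6, which pass signals from Toll-like and IL-1 receptors to NF-kB. Members held Irak1 at 43.7, 62.4, 49.4 and 54.9 CPM and Traf6 at 87.5, 67.2, 27.99 and 30.8 CPM, so neither transcript was higher in the miR-146a-/- and DKO members than in treated WT members. A list of 12 genes of miR-146a targets and their pathway summed to 853, 1252, 774 and 853 CPM in members, with all 12 detected.

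Genes of the macrophage core were present in the members of each library, with 12 of 12 detected and summed levels of 6714, 11631, 6704 and 6541 CPM. Csf1r, the receptor that keeps macrophages alive, stood at 394, 576, 618 and 499 CPM, the lysosomal gene Cd68 at 328, 422, 409 and 481 CPM and Adgre1, which encodes F4/80, at 72.9, 43.2, 154 and 226 CPM. Csf1r and Cd68 varied less than 2-fold between libraries, and Adgre1 was higher in the knockout members. The lysozyme gene Lyz2, most abundant of the core, differed: it stood at 4009, 6861, 3006 and 2997 CPM in members and at 2081 and 1716 CPM in miR-146a-/- and DKO high members, against 3659 and 7001 CPM in members with 1 UMI and 8987 and 9699 CPM in Fcgr4 cells without the 4 genes of the same libraries. High members were thus the poorest in Lyz2 of these macrophage or monocyte classes, though still above the 176 and 273 CPM of B cells. Lyz2 was detected in 47.1 and 26.6% of high members (32.7 and 18.2% thinned) against 97.0 and 94.7% of Fcgr4 cells without the 4 genes (93.5 and 92.5% thinned) and 14.8 and 14.0% of B cells (6.16 and 6.09% thinned). In DKO high members the engulfment receptor Mertk stood at 20.5 CPM, the endotoxin co-receptor Cd14 at 49.6 CPM and the IgG receptor Fcgr1 at 27.6 CPM, while miR-146a-/- high members had 0, 31.6 and 68.1 CPM, against 49.6 and 61.7, 181 and 185 and 149.9 and 129 CPM of the 3 genes in other cells of miR-146a-/- and DKO with 10 or more C1q UMIs and no CD3 or CD8 UMI. All 3 were lower in high members than in those cells.

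Patrolling monocyte genes were frequent in members. A UMI of at least 2 of Ace, Treml4, Adgre4 and Cd300e was found in 7 of 9, 9 of 12, 94 of 116 and 614 of 724 members, which in the knockout libraries is 81.0% and 84.8%, and in 82.4% and 88.4% of miR-146a-/- and DKO high members. Fcgr4 cells with none of the 4 genes passed this gate as often, at 88.2% and 86.1% in the knockout libraries. The 12 patrolling genes summed to 2267, 2145, 4597 and 4578 CPM, all 12 detected and Nr4a1 most abundant in each library, so the level was about 2 times higher in knockout than in WT members. C1q transcripts marked a minority: 2, 2, 24 and 165 members had 10 or more UMIs of C1qa, C1qb and C1qc, or 22.2%, 16.7%, 20.7% and 22.8%, against 14.6%, 22.6%, 5.88% and 7.34% of Fcgr4 cells with none of the 4 genes. Fc receptor genes other than Fcgr4 and Fcrl5 of the rule summed to 3047, 3791, 4639 and 5679 CPM and were led by Fcer1g, the signalling chain of Fcgr4, at 2442, 3090.0, 4263 and 5384 CPM. Fcer1g rose with Fcgr4 from WT to DKO members, but the list as a whole did not. In miR-146a-/- against treated WT members 0 of its 6 tested genes were higher. Fcgr1, Fcgr3 and Fcmr, 3 of the 6, were lower (list median log2 ratio -0.89), with 13.5% of all tested genes past 2-fold. In DKO against miR-146a-/- members 0 of 5 were past 2-fold, with 2.02% of all tested genes past it. Csf1r, Cd68 and C1q are macrophage genes, yet Lyz2 and Mertk were low and patrolling genes frequent. A macrophage and a patrolling monocyte type cannot be told apart for these cells, which are called members here. Negr1 itself was detected in only 11.1, 41.7, 29.3 and 66.9% of them.

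**Figure D3:**
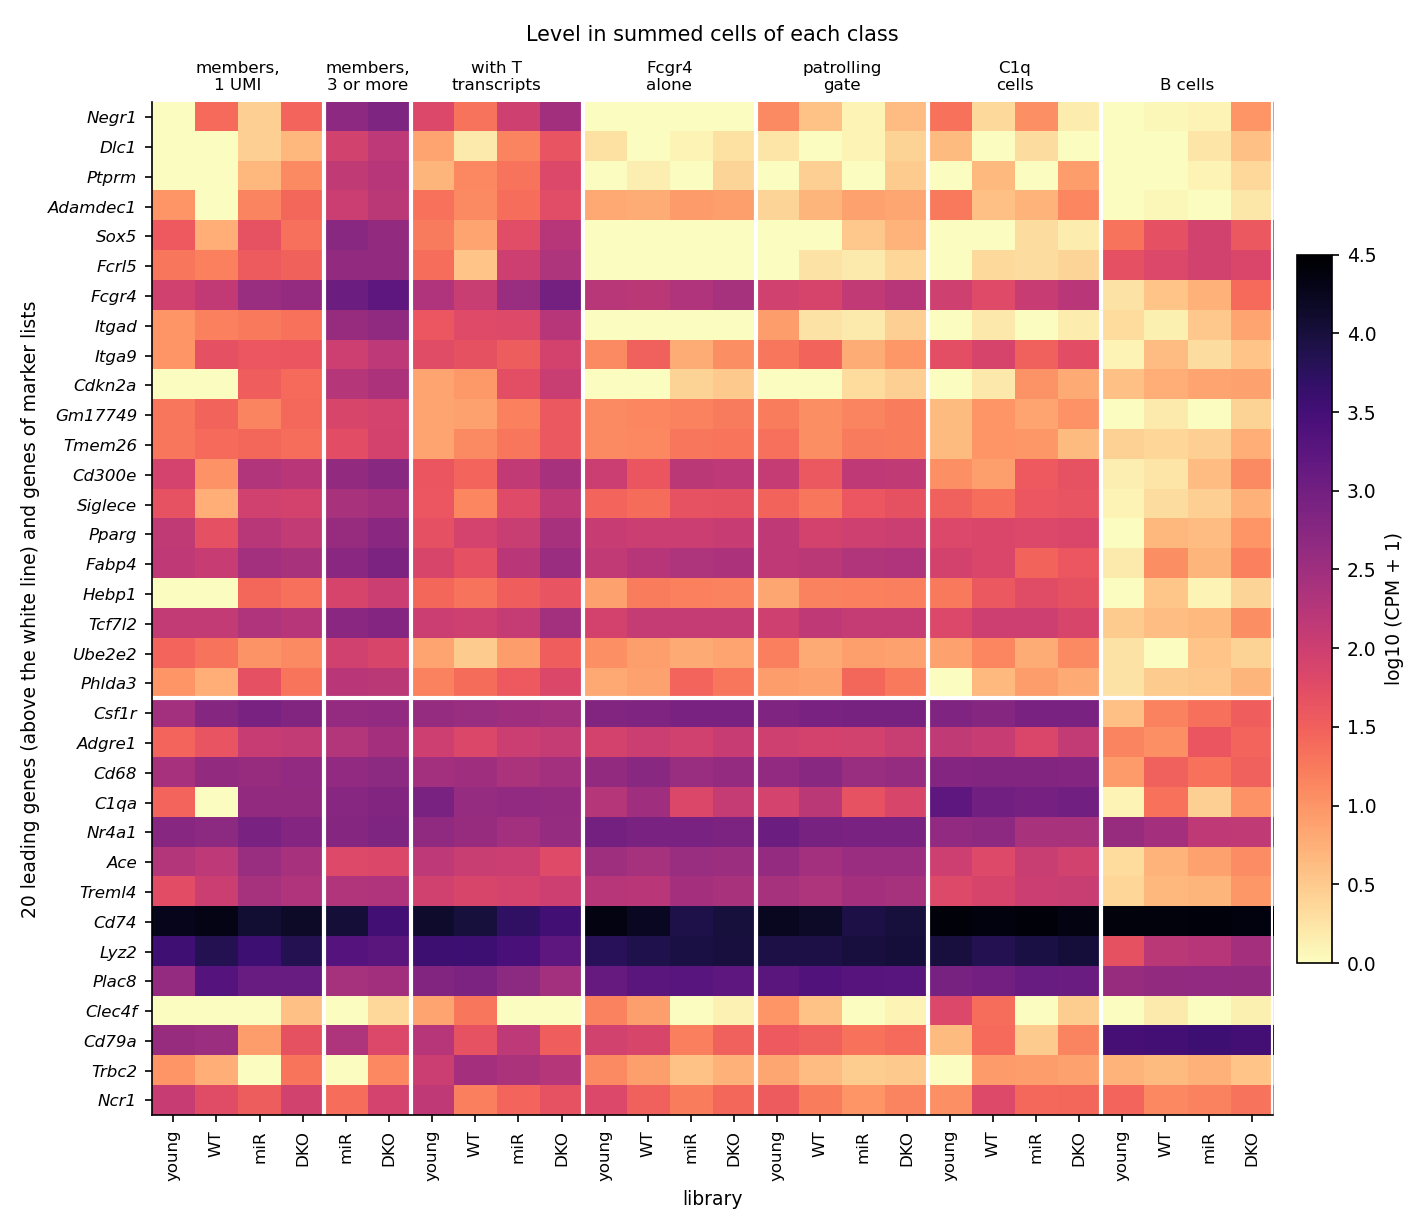
Level of 20 leading genes of the members (above the white line) and of chosen marker genes (below) in the summed cells of each class and library, as log10 of CPM plus 1. Beside the genes of the rule, members with 3 or more UMIs of the 4 genes had more Dlc1, Ptprm and Cdkn2a and less Lyz2 and Plac8 than Fcgr4 cells without the 4 genes.

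Genes that the rule did not use also led the members over all other kept cells. Dlc1, which encodes a GTPase-activating protein, stood at 14.6, 0, 34.5 and 107 CPM in members and 1.03, 0.596, 0.804 and 4.30 CPM in other cells, and pooled it was 51.6-fold higher, with the same direction in 3 libraries. Ptprm, an adhesive receptor phosphatase, stood at 65.6, 0, 56.0 and 127 against 0.525, 1.47, 0.995 and 6.04 CPM (46.9-fold pooled, 3 libraries), and Adamdec1, a secreted metalloprotease, at 21.9, 0, 49.4 and 117 against 0.430, 1.07, 2.42 and 6.04 CPM (39.3-fold, 3 libraries). All 3 were highest in DKO members and absent from treated WT members, and in young WT all UMIs of Dlc1 and of Ptprm came from 1 cell each. Cdkn2a, which encodes the cell cycle brakes p16 and p19ARF, stood at 0, 0, 91.4 and 169.7 against 2.78, 9.27, 9.17 and 14.5 CPM and was higher only in the 2 knockout libraries, 16.5-fold pooled. Fabp4, a fatty acid carrier under control of Pparg, stood at 146, 115, 362 and 612 against 7.21, 22.7, 48.0 and 80.6 CPM (13.6-fold, 4 libraries), and Tcf7l2, a Wnt pathway transcription factor, at 160.4, 125, 316 and 487 against 13.004, 28.4, 36.8 and 60.3 CPM (12.6-fold, 4 libraries). Both were higher in members than in other cells everywhere and highest in DKO.

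Receptor genes among the leaders were Itga9, an integrin subunit, at 80.2, 48.0, 66.2 and 118 against 2.39, 9.80, 3.13 and 9.84 CPM (16.6-fold pooled, 4 libraries), Cd300e, an activating receptor of monocytes, at 65.6, 9.60, 279.9 and 429.5 against 4.502, 5.35, 35.0 and 53.1 CPM (15.5-fold), and Siglece, an inhibitory receptor for sialic acids, at 65.6, 4.80, 149 and 237 against 3.44, 6.52, 16.01 and 28.02 CPM (15.4-fold). Cd300e was higher in members in 4 libraries and Siglece in 3, each lowest in treated WT members. Against Fcgr4 cells without the 4 genes, Cd300e was lower in WT members, on few UMIs, and higher in knockout members. It had 9 of 137177 UMIs in members and 118 of 1101464 in those cells in young WT. In treated WT it had 2 of 208412 and 106 of 2606666. For miR-146a-/- these were 300 of 1071886 and 1213 of 7803209, and for DKO 2369 of 5515125 and 1912 of 13152308. Pooled ratios were set mostly by the DKO library, which gave most members. The gate genes themselves, Negr1 at 57.8-fold, Sox5, Fcrl5, Fcgr4 and Itgad, led by construction and are no finding. Pparg stood at 153, 48.0, 247 and 410.1 against 6.67, 17.9, 27.7 and 51.2 CPM in other cells and was 14.0-fold higher pooled, in the same direction in 4 libraries. Ube2e2, which encodes a ubiquitin-conjugating enzyme, stood at 21.9, 19.2, 40.1 and 56.8 against 3.01, 3.76, 4.02 and 6.32 CPM (12.1-fold), and the p53 target Phlda3 was 11.2-fold higher pooled in members, in 3 libraries. The remaining leaders were Gm17749, Tmem26 and Hebp1, at 16.2-, 15.7- and 13.2-fold pooled.

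The members were also split within each library. As the number of mice behind each library was not stated, the 2 sets may still differ by mouse. High members and members with 1 UMI differed at least 2-fold the same way in both knockout libraries for 214 of 4099 tested genes (5.22%), 126 higher and 88 lower in high members. Slit3, a secreted guidance protein, stood at 89.9 against 0 CPM for miR-146a-/- and 60.2 against 0 CPM for DKO, at least 16.1- and 21.2-fold higher in high members, which held 37 and 238 of its UMIs. Dlc1 stood at 85.1 against 1.86 and 147 against 3.795 CPM, Ptprm at 136 against 3.72 and 172 against 11.4 CPM, and Cdkn2a at 179.9 against 31.6 and 224 against 23.7 CPM. These 4 genes were thus higher in high members of both genotypes. This is description only, because the split used genes of the rule and Slit3, Dlc1 and Ptprm were picked as its largest rises. Syne1, a nuclear envelope linker, stood at 333 against 42.8 and 311 against 50.3 CPM, Grap2, an adaptor protein, at 418 against 87.4 and 480.3 against 58.8 CPM, and Dusp12, a phosphatase, at 192 against 27.9 and 276 against 45.5 CPM. Further rises were Scel, Prune2, Ccser1, Rnf144a, Ube2e2, Gcnt1, Adamdec1, Fam89a, Dst, Klra17 and Phlda3. Pparg (382 against 169 and 517 against 127 CPM), the adhesion gene Cadm1 (447 against 91.1 and 417 against 95.8 CPM), Tcf7l2 (525 against 201 and 611 against 169.8 CPM) and Cd300e (428 against 195 and 532 against 160.3 CPM) were all more than 2-fold higher in high members.

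Other genes were lower in high members, and no gene list was compared here. Cxcl9, a chemokine induced by interferon gamma, stood at 0 against 52.1 CPM for miR-146a-/- and 7.59 against 161 CPM for DKO, Spp1, which encodes osteopontin, at 0 against 48.4 and 9.62 against 124 CPM, and the C-type lectin gene Cd209a at 19.4 against 76.3 and 4.81 against 74.0 CPM. All 3 fell in both libraries, Cxcl9 and Spp1 by at least 7.14- and 6.63-fold in miR-146a-/-. The angiotensin-converting enzyme gene Ace, itself a patrolling gene, stood at 63.2 against 355 and 67.8 against 251 CPM, Plac8, a monocyte gene, at 265 against 1279.7 and 298 against 1255 CPM, and the complement receptor gene C5ar1 at 24.3 against 132 and 27.8 against 112 CPM. Ace and Plac8 were thus over 3-fold lower in high members of both genotypes, so the high members were not simply richer in every patrolling gene. Haptoglobin (Hp) at 189.6 against 653 and 208 against 624 CPM and the fatty acid receptor gene Cd36 at 26.7 against 123 and 11.1 against 95.8 CPM fell too, beside Cxcl10, Gpnmb, Upp1, Clec4d, Cxcl2, Tnip3, Ly6i, F10, Pi16, Slfn1, Ninj1, Cfb and Ier3. The B cell genes Cd79b at 168 against 18.6 and 141 against 43.6 CPM and Ms4a1 at 53.5 against 3.72 and 23.3 against 8.54 CPM were higher in high members by summed counts. By cells, Cd79a or Ms4a1 was seen in 4 of 51 and 21 of 568 high members against 5 of 53 and 7 of 103 members with 1 UMI, and the part of B cell RNA in this was not tested.

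**Figure D4:**
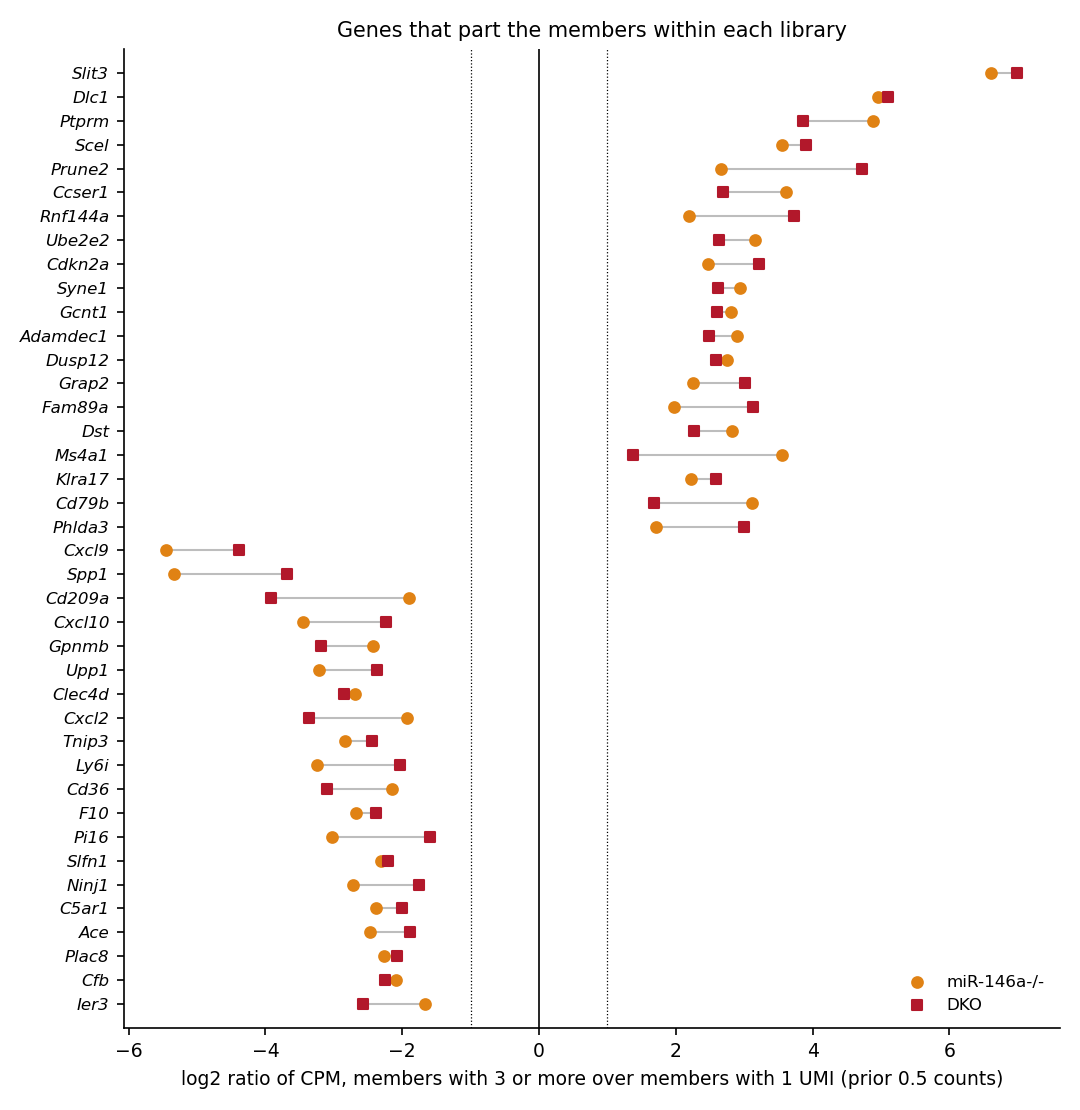
Log2 ratio of CPM of members with 3 or more over members with 1 UMI of the 4 genes, for the 20 largest rises and 20 largest falls, in the miR-146a-/- (circles) and DKO (squares) libraries. Slit3, Dlc1 and Ptprm rose most and Cxcl9, Spp1 and Cd209a fell most, and dotted lines mark 2-fold.

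The nearest other cells were those with Fcgr4 but none of the 4 genes, and comparison with them describes what the rule separated and is not a test. In all 4 libraries 17 of 3537 tested genes (0.481%) differed at least 2-fold the same way, 13 higher and 4 lower in members, and 12 (0.339%) did so counting only libraries with more than 3 UMIs on a side. In the 2 knockout libraries 147 (4.16%) did, 101 higher and 46 lower. Ube2e2 stood at 21.9, 19.2, 40.1 and 56.8 CPM in members and 9.99, 6.91, 5.25 and 6.01 CPM in the Fcgr4 cells, Gcnt1, a glycosyltransferase of O-glycan branching, at 21.9, 19.2, 66.2 and 117 and 10.9, 9.21, 13.8 and 15.4 CPM, and the myosin gene Myo1e at 146, 110.4, 102 and 116 and 13.6, 36.4, 26.5 and 27.0 CPM. These were higher in members everywhere, by 8.67-, 7.46- and 4.20-fold pooled. Cd79b, a B cell receptor subunit, stood at 204, 278, 105 and 114 and 62.6, 26.9, 19.7 and 24.4 CPM (4.80-fold), and Klrb1c, Chn2, Cd81 and Ptprcap were 3.22-, 3.14-, 2.66- and 2.54-fold higher pooled. The genes lower in members of all libraries were Retnlg, Saa3 and Lcn2, whose level was 0 in WT members, and Hacd4. With a prior of 5 counts these 4 falls were lost, and 35 genes were higher and 0 lower in members. In miR-146a-/- and DKO, Dlc1 stood at 34.5 and 107 CPM in members and 0.256 and 0.836 CPM in the Fcgr4 cells, and Cdkn2a at 91.4 and 169.7 and 1.54 and 2.20 CPM. Both were far higher in members of the 2 libraries.

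Gene lists were compared between members and these Fcgr4 cells as well. Of 10 tested classical monocyte genes 6 were lower in members of both knockout libraries (Ccr2, Chil3, F13a1, Plac8, Fn1 and Hp), with median log2 ratios of -1.87 and -1.30 against 0.04 and 0.06 over all tested genes. In young and treated WT the list medians were -2.85 and 0.04, and 0 of the 10 were lower in all 4 libraries. Chil3, a chitinase-like protein, stood at 138 and 157 against 639 and 454 CPM and the matrix gene Fn1 at 45.7 and 71.6 against 220.0 and 219 CPM. Of 12 patrolling monocyte genes 0 were past 2-fold (medians -0.14 and -0.05), which at 4.16% of all tested genes is near what any 12 genes would give. C1qa, C1qb and C1qc were higher in members, with C1qa at 619 and 580.2 against 68.8 and 122 CPM. Nr1h3, the oxysterol receptor LXR alpha, and Cd5l were higher of 4 Kupffer cell genes, with Nr1h3 at 58.3, 173, 208 and 327 against 42.7, 155, 90.7 and 105 CPM. Nr1h3, Id2 and Pparg were higher of 15 macrophage transcription factors, and Lyz2 and Cd14 lower of 11 macrophage core genes (medians 0.05 and -0.30). Of 7 cytotoxic genes, 4 were higher in members (Nkg7, Gzma, Ctsw and Xcl1, medians 1.16 and 1.35), of 8 neutrophil genes 3 were lower, and of 4 genes of type 1 dendritic cells Cadm1 was higher and Naaa lower.

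Cells that passed the rule but for a T cell UMI numbered 28, 90, 167 and 553, and 8, 22, 69 and 354 of them had 3 or more UMIs of the 4 genes, so WT Fcgr4 cells with such counts existed but all carried a CD3 or CD8 UMI. They were deeper than members, with medians of 16913.5, 21727.5, 13648 and 10080 UMIs, and cells joined in 1 droplet cannot be told apart from cells that carried both sets of transcripts. In all 4 libraries 108 of 3807 tested genes (2.84%) were past 2-fold, 4 higher and 104 lower in members, or 107 (2.81%) with more than 3 UMIs on a side, and in the 2 knockout libraries 249 (6.54%) were, 25 higher and 224 lower. All 13 tested T cell genes other than CD3 and CD8 were lower in members of both knockout libraries, with medians of -5.94 and -4.30, a direction set by the rule, which chose members without and these cells with a CD3 or CD8 UMI. Trac, the alpha chain constant gene of the T cell receptor, stood at 7.29, 0, 0.933 and 1.81 CPM in members and 72.1, 162, 157 and 144 CPM in these cells. Other falls included Gzmk, Cd6, Cd5, Lat, Cd28, Ctla4 and Themis. Higher in members of every library were Tppp3 at 21.9, 81.6, 134 and 133 against 10.0, 10.8, 51.5 and 57.8 CPM, the scavenger receptor and chemokine Cxcl16 at 182, 197, 159.5 and 72.3 against 90.1, 96.3, 63.7 and 31.5 CPM, and the membrane protease Mmp14 at 58.3, 173, 106 and 55.3 against 12.0, 77.8, 44.6 and 25.5 CPM. The level of Cxcl16 in members was lowest in DKO. Treml4 and Ear2 were higher of 12 patrolling genes, 7 of 10 cytotoxic genes were lower, and Maf and Runx3 were lower among transcription factors.

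Cells with 10 or more C1q UMIs and no CD3 or CD8 UMI that were not members, called C1q cells, numbered 27, 119, 64 and 125. In all 4 libraries 48 of 3619 tested genes (1.33%) were past 2-fold the same way, 36 higher and 12 lower in members (52 and 5 with a prior of 5 counts), or 39 (1.08%) with more than 3 UMIs on a side, and in the 2 knockout libraries 325 (8.98%) were, 225 higher and 100 lower. L1cam, an adhesion molecule, stood at 43.7, 4.80, 110.1 and 111 CPM in members and 10.3, 2.36, 13.4 and 5.87 CPM in C1q cells, Pecam1, which encodes CD31, at 102, 62.4, 272 and 298 and 20.5, 14.2, 28.9 and 30.3 CPM, and Spn, which encodes CD43, at 153, 57.6, 311 and 251 and 23.9, 26.6, 55.8 and 49.9 CPM. All 3 surface genes were higher in members everywhere, 16.6-, 11.8- and 6.06-fold pooled, though L1cam in treated WT members was 1 UMI. Gpnmb, a glycoprotein of lipid-laden macrophages, stood at 0, 24.0, 10.3 and 18.1 and 188, 255, 74.4 and 140.4 CPM, Spp1 at 29.2, 0, 29.9 and 31.9 and 243, 159, 345 and 155 CPM, and the fatty acid carrier Fabp5 at 65.6, 173, 131 and 129.8 and 609, 812, 369 and 332 CPM. These were lower in members of every library, by 10.1-, 6.48- and 3.98-fold pooled. Further rises were Tgfbr3, Sh3bp5, Gm15987, Slc12a2, Gm31814, Cd79a and Clec2g, and further falls Clec4n, Cd63, Tbxas1, Cstb, Cxcl2, Cd84 and Myof.

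Lists gave the same contrast between members and C1q cells in the knockout libraries, where the medians over all tested genes were 0.10 and 0.12. Of 12 patrolling genes 7 were higher in members (medians 1.76 and 1.37). Of the macrophage core, Mertk, Fcgr1, Lyz2, Cd14 and Axl were lower, and of 14 lipid-associated macrophage genes 6 were lower (Trem2, Gpnmb, Spp1, Fabp5, Lpl and Cd63, medians -0.91 and -1.19). Of 8 genes of major histocompatibility complex (MHC) class II 7 were lower (medians -1.36 and -1.77), as were 3 of 5 Fc receptor genes outside the rule, 4 of 10 interferon-stimulated genes, and Msr1, Axl and Mertk of 9 scavenger receptors, of which Cd5l was higher (medians 0.01 and -0.40). The class II chaperone Cd74 stood at 16489.6, 20354, 11642 and 6395 CPM in members and 26470.2, 23583, 26019 and 22849.5 CPM in C1q cells, and it was lowest in DKO members. Genes of other cell types moved as well, and their part was not tested. All 3 tested B cell genes were higher in members (Cd79a, Cd79b and Ighm, medians 2.32 and 1.83). Of 8 neutrophil genes 4 were higher and 0 lower (Ltf, Camp, Ngp and Lcn2, medians 7.04 and 1.10). In young and treated WT the neutrophil medians were -1.72 and -2.86.

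DKO and miR-146a-/- members, the 2 larger sets, were close to each other. Of 3571 tested genes 72 (2.02%) differed at least 2-fold, 28 higher in DKO (0.784%) and 44 lower (1.23%), and the median log2 ratio over all tested genes was 0.03. This split was not stable: with the cell that held most UMIs of each gene left out, 62 genes passed, 51 higher and 11 lower, and 33 of the 72 were among them. Leaving out 1 cell takes more from the smaller set, here and in the comparisons with WT, so part of such a shift is built in. Gm42031, a predicted gene, stood at 71.8 and 294 CPM in miR-146a-/- and DKO members and Clec12a, an inhibitory lectin, at 34.5 and 129 CPM, detected in 46 and 485 cells and in 18 and 309. They rose 4.10-fold (3.26 to 5.22) and 3.75-fold (2.69 to 5.36). The same rises were seen outside the members, since Fcgr4 cells without the 4 genes gave 74.3 and 336 CPM of Gm42031 and 32.6 and 137 CPM of Clec12a, and Clec12a in WT members stood at 153 and 178 CPM, so miR-146a-/- was the low library. Dlc1 stood at 34.5 and 107 CPM and rose 3.09-fold (2.21 to 4.43), and Lipg, the endothelial lipase gene, stood at 13.1 and 51.0 CPM and rose 3.90-fold. High members, in which Dlc1 was higher, made up 44.0% of miR-146a-/- and 78.5% of DKO members. Among high members alone Dlc1 was less than 2-fold higher in DKO. Cd5l, an inhibitor of macrophage apoptosis, stood at 10.3 and 62.7 CPM in 6 and 44 cells and rose 6.11-fold.

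Of the 10 largest rises in DKO members 4 were cytotoxic or NK cell genes: Gzmb stood at 21.5 and 123 CPM in miR-146a-/- and DKO, Ncr1 at 27.99 and 77.4 CPM, Klrb1c at 21.5 and 60.6 CPM and Xcl1 at 34.5 and 92.1 CPM. They were found in 47, 55, 51 and 48 of 724 DKO members, and 62.2% of the miR-146a-/- UMIs of Xcl1 came from 1 cell. Cxcl2 stood at 13.1 and 69.8 CPM, with 40.5% of its DKO UMIs in 1 cell. Ccl5 fell 31.1-fold from 710.0 to 22.8 CPM, which is the knockout itself. The other steep falls came from single miR-146a-/- cells: Ccl22 at 102 and 0 CPM had 87.2% of its UMIs in 1 cell, Il12b, a subunit of IL-12, at 122 and 3.08 CPM had 79.4%, and Ccr7 at 58.8 and 15.4 CPM had 65.1%. Zdhhc14, Kdm2b and Hist1h2ap had 60.0%, 45.2% and 50.7% of their miR-146a-/- UMIs in 1 cell. Falls spread over more cells were Ass1, which makes argininosuccinate, at 104 and 31.7 CPM (3.26-fold lower), Rilpl2 at 97.0 and 31.4 CPM (3.09-fold lower, 40 and 112 cells) and Tnip3, an NF-kB inhibitor, at 53.2 and 17.4 CPM (3.05-fold lower).

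**Figure D5:**
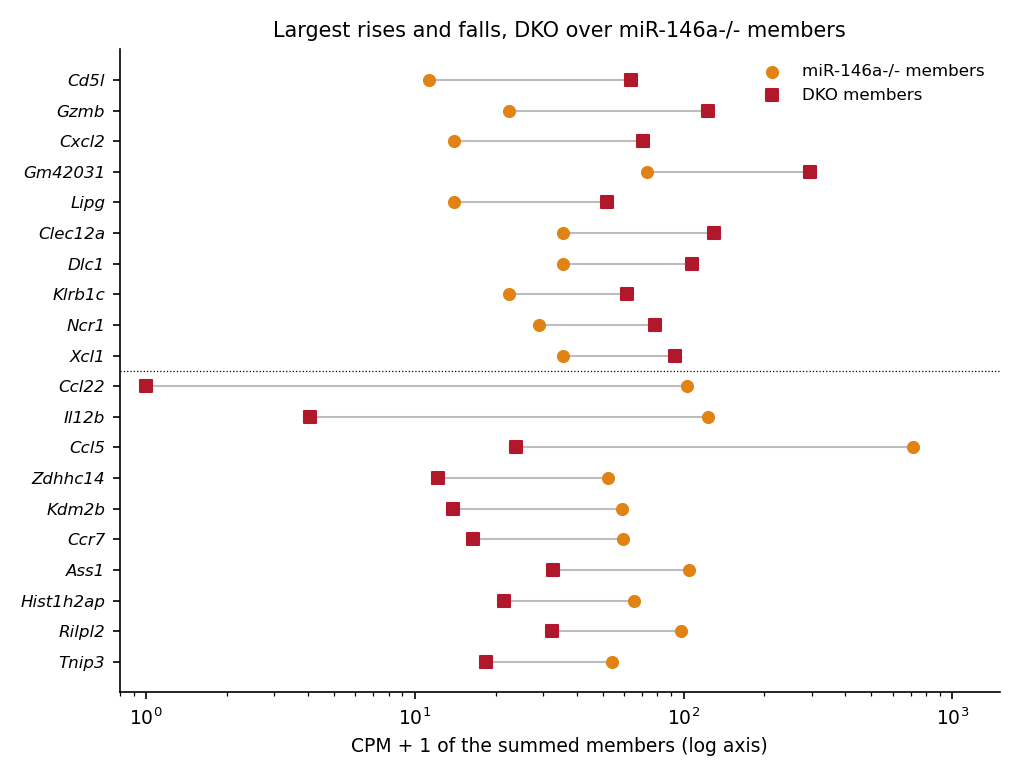
Level in miR-146a-/- (circles) and DKO (squares) members, as CPM plus 1 on a log axis, of the 10 largest rises (above the dotted line) and the 10 largest falls (below) in DKO. Ccl5 fell from 710.0 to 22.8 CPM, and Gm42031 rose from 71.8 to 294 CPM.

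With 2.02% of all tested genes past 2-fold, few or no genes of a short list would be, so the lists between the 2 knockout sets are given as values. Past 2-fold were 0 of 12 patrolling genes (median -0.08), 0 of 11 macrophage core genes (-0.12), 0 of 7 miR-146a pathway genes (0.14), 0 of 13 NF-kB genes (-0.24), 0 of 8 interferon-stimulated genes (-0.36) and 0 of 6 MHC class II genes (-0.82). The MHC class II list nevertheless summed to 21689 and 12111 CPM in miR-146a-/- and DKO members. Of 11 chemokine and receptor genes, Cxcl2 was higher and Ccl4, Ccl5 and Cxcl16 lower, of 7 cytotoxic genes Gzmb and Xcl1 were higher and Ccl5 lower, and of 3 NK genes 2 were higher. Among high members 98 of 3675 tested genes (2.67%) were past 2-fold, 43 higher and 55 lower in DKO, 29 of them shared with the 72 above. MHC class II stood out there: 5 of 6 genes were lower in DKO (median -1.64 against -0.02 over all tested), and the list summed to 20173 CPM for the miR-146a-/- and 6545 CPM for the DKO high members, with 17.7% and 7.35% from the top cell. Few cells carried it, since the top 10 cells held 97.2% of the list's UMIs in miR-146a-/- and 51.3% in DKO, and the median high member of either library had 1 UMI. Cd74 stood at 10723 and 3409 CPM and H2-Aa at 3412 and 1106 CPM in these high members, so the difference in sums came from few cells and was no difference between typical high members. Also lower were Wfdc17, 945 against 235 CPM and 4.02-fold, Ccl4, 715 against 203 CPM and 3.52-fold, and the interferon-stimulated gene Ifi27l2a, 484 against 145 CPM and 3.33-fold. Of 8 neutrophil genes 7 were higher in DKO, but S100a9 at 1552 CPM had 50.4% of its UMIs in 1 cell.

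Comparisons with the WT libraries rested on 12 and 9 cells and describe those cells only. Between miR-146a-/- and treated WT members 454 of 3367 tested genes (13.5%) were past 2-fold, 292 higher and 162 lower in miR-146a-/-. This split was not stable: it was 122 higher and 186 lower with a prior of 5 counts, and 538 and 61 without the cell holding most UMIs of each gene. C1qa stood at 0 CPM in treated WT and 618.5 CPM in miR-146a-/- members, in 40 cells, and Cadm1 at 0 and 233 CPM, in 52 cells, which is at least 43.0- and 16.2-fold higher. C1qb and C1qc were past 2-fold higher too. C1q was not absent from treated WT members, since 16.7% of them had 10 or more summed C1q UMIs, against 20.7% in miR-146a-/-. Rises of S100a9, S100a8, Ngp, Camp, Saa3, Lcn2, Il12b and Stmn1 leaned on few cells, with 79.1% of S100a9 and 99.7% of Ngp UMIs from 1 cell. Cxcl10, an interferon-induced chemokine, stood at 456 and 20.5 CPM in treated WT and miR-146a-/- members and fell 22.2-fold, from 5 cells to 4. Gpr183, an oxysterol receptor, stood at 187 and 25.2 CPM and fell 7.43-fold, from 10 of 12 to 16 of 116 cells, while Cxcl9 and Gbp2 had 96.5% and 58.5% of their WT UMIs in 1 cell. Other falls were Ccl24, Iglc2, Cxcl2, Cd69, Slc15a2 and Blk. Of 12 patrolling genes 8 were higher in miR-146a-/- (median 1.18 against 0.05 over all tested), while 8 of 10 interferon-stimulated genes (-1.42), 6 of 10 MHC class II genes (-1.22) and 6 of 7 B cell genes (-1.68) were lower. Of 8 classical monocyte genes 5 were lower (Ly6c2, Ccr2, Chil3, Plac8 and Ms4a4c, list median -1.51), and only S100a8 and S100a9 were higher. Macrophage core genes moved apart, with Adgre1 higher and 5 of 11 lower (-0.50).

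Treated and young WT members differed in both age and treatment, and 352 of 1911 tested genes (18.4%) were past 2-fold, 207 higher and 145 lower in treated WT. That split too was unstable, with 114 and 129 under a prior of 5 counts and 229 and 19 without the cell holding most UMIs of each gene. Cxcl10 stood at 0 CPM in young and 456 CPM in treated WT members, in 5 cells, at least 20.8-fold higher, and Hp rose from 36.4 to 417 CPM. Ly6c2 rose from 29.2 to 513 CPM with 58.9% of its UMIs in 1 cell, and Cxcl2, Blk, Iglc2, Ly6a, Ifi211, Gpr183 and Cxcl9 rose as well. All 9 interferon-stimulated genes tested were higher in treated WT members (median 1.95 against 0.06 over all tested), as were all 6 classical monocyte genes (2.36) and 3 of 10 macrophage core genes (0.89), while 0 of 10 MHC class II genes passed. The falls Clec4f, Cd5l, Fcna, Vsig4, Slc40a1 and Folr2 had all of their young WT UMIs in 1 cell, and C1qa had 98.1%. Gzma fell from 991 to 9.60 CPM, from 4 cells to 2, with 70.6% of its young WT UMIs in 1 cell. Cd209a fell from 270 to 0 CPM, with 83.8% of its young WT UMIs in 1 of 2 cells. Of 6 cytotoxic genes 5 were lower in treated WT and 0 higher (median -2.68). Kupffer cell genes summed to 3944, 921, 556 and 973 CPM in members, with 14, 5, 11 and 14 of 15 detected, and 91.3% of the young WT level came from 1 cell.

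Transcripts of other cell types were present in the members, and their part in the result was not tested. The 14 T cell genes other than CD3 and CD8 summed to 211, 226, 122 and 188 CPM, with 8, 12, 11 and 14 detected and led by Lck, Cd2, Cd2 and Skap1, against 3306, 2846, 2770.3 and 2247 CPM in other kept cells. B cell genes summed to 1305, 1516, 541 and 460.0 CPM, with 92.2%, 47.5%, 34.5% and 6.23% from the top cell, and 2, 2, 10 and 32 members had a UMI of Cd79a or Ms4a1. NK cell genes, led by Tyrobp, which myeloid cells share, summed to 2909, 3219.6, 3286 and 3875 CPM with 10, 5, 9 and 10 of 10 detected, and 2, 1, 5 and 61 members had a UMI of Ncr1 or Klrb1c. Cytotoxic genes summed to 6969, 590.2, 1256 and 987 CPM with 10, 9, 10 and 10 of 10 detected, led by Ccl5 in the first 3 libraries and by Gzma in DKO. Neutrophil genes summed to 14.6, 76.8, 3635 and 4632 CPM with 1, 2, 10 and 10 of 10 detected, led by Csf3r in WT and S100a9 in knockout members, and 98.7% and 97.7% of the miR-146a-/- and DKO level came from 10 cells. Classical monocyte genes summed to 795, 4467, 4566 and 4790.5 CPM with 7, 11, 12 and 12 of 12 detected and 50.5%, 24.1%, 50.1% and 20.7% from the top cell, and plasma cell genes, led by Xbp1, to 372, 283, 204 and 213 CPM with Tnfrsf17 at 0 in every library.

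Dendritic cell genes were detected in part. Genes of type 1 dendritic cells summed to 583, 533, 497 and 609.8 CPM, with 4, 4, 7 and 7 of 7 detected and led by Irf8 in WT and Cadm1 in knockout members, with Xcr1 and Itgae at 0 in both WT libraries and Xcr1 at only 1.87 and 3.99 CPM in the knockouts. Genes of type 2 summed to 897, 571, 614 and 749 CPM, of mature dendritic cells to 372, 139, 295 and 84.3 CPM with 4, 6, 7 and 6 of 7 detected and Ccl22 at 0 in DKO, and of plasmacytoid cells to 219, 513, 430.1 and 224 CPM with 3, 3, 7 and 7 of 7 detected, led by Bst2. Hepatocyte genes summed to 416, 110.4, 92.4 and 65.6 CPM with 7, 5, 8 and 10 of 11 detected, led by Apoc1 in young WT, with 94.1% of its UMIs in 1 cell, and by Trf elsewhere, and genes of liver endothelium, which include Fcgr2b and Pecam1 of myeloid cells, to 408, 317, 445 and 394 CPM. Genes of mast cells and basophils summed to 0, 0, 15.9 and 15.0 CPM, of platelets and erythroid cells to 7.29, 9.60, 17.7 and 25.4 CPM, led by Pf4, and of stellate cells to 0, 0, 0 and 0.725 CPM. Alb or Apoa1 was seen in 3, 2, 6 and 55 members.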

How the data were processed

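The deposited filtered UMI counts of the authors, made with Cell Ranger 7.0.1 on mm10, were used for all 4 libraries. Members and gene lists were chosen with earlier results of these data known. Against doublets only the limit of 6000 genes was set. UMIs of the cells of a class were summed per library and scaled to CPM, and log2 ratios took a prior of 0.5 counts. Genes with at least 50 CPM and 20 UMIs were tested against a limit of 2-fold, without p-values, as each group had 1 library. Named genes were the 20 leading genes of members, the 10 largest rises and falls of each comparison and of each comparator, leaving out mitochondrial, ribosomal, antigen receptor and immunoglobulin segment genes. The rule that a ratio needs more than 3 UMIs on a side was added after results were seen. Alternatives changed the rule, the cell limits, the denominator and the scaling. The code was tested on simulated data. Python 3.11.15, numpy 2.4.6, scipy 1.17.1, pandas 2.3.3 and matplotlib 3.10.9 were used.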

Additional observations from a re-analysis of the deposited data

How the results depend on the processing

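A share ratio was held to have moved when it left the 95% interval of its main value, and a count of genes when it changed over 1.5-fold. Of 71 results of alternative settings 17 moved and 54 stayed the same, and 0 ratios reversed, while counts were judged without their direction. Of those fixed in advance 11 moved and 42 stayed, and of those chosen after seeing the data 6 moved and 12 stayed. With each cell thinned to 2000 UMIs the members numbered 1, 2, 51 and 552, and the share ratio of miR-146a-/- over treated WT moved from 10.3 to 26.6 and of DKO over miR-146a-/- from 4.96 to 8.56. With 2 or more Fcgr4 UMIs the ratios were 22.9 and 6.05, and with 2 or more UMIs of the other 4 genes at least 22.4 and 7.83. The DKO ratio was 6.26 without Sox5 in the rule, 3.67 over cells without T cell UMIs and, chosen after seeing the data, 8.85 with 3 or more UMIs of the 4 genes. Genes past 2-fold numbered 216 instead of 352 between the WT libraries when members with a B or NK cell marker were left out, and at a minimum of 10 CPM they numbered 1084 instead of 454 for miR-146a-/- over treated WT and 309 instead of 72 for DKO over miR-146a-/-. Among settings chosen after seeing the data, asking for 2 knockout libraries instead of 4 libraries gave 147 instead of 17 genes against Fcgr4 cells, 249 instead of 108 against cells with T transcripts and 325 instead of 48 against C1q cells, and a prior of 5 counts gave 35 (35 higher, 0 lower) instead of 17 and 54 instead of 108 for the first 2. A prior of 5 counts, fixed in advance, turned the larger direction of the comparisons with WT, with 114 higher and 129 lower between the WT libraries, 122 and 186 for miR-146a-/- over treated WT, and, added later, it gave 52 and 5 instead of 36 and 12 against C1q cells. Settings under which no result moved were up to 10% mitochondrial UMIs, cells from 200 genes on, a rule without Negr1, Itgad or Fcrl5, also barring T cell receptor constant genes, median-of-ratios scaling, a mean over cells and, chosen after seeing the data, leaving out the member with most Kupffer cell UMIs and asking for more than 3 UMIs on a side. Without Negr1 the miR-146a-/- ratio was 17.3, still inside its interval. The mean over cells gave 82 genes for DKO over miR-146a-/-, 23 higher and 59 lower, but only 36 were among the 72. Leaving out the top cell of each gene, chosen after seeing the data, kept the counts within 1.5-fold but not their directions, with 229 higher and 19 lower between the WT libraries, 538 and 61 for miR-146a-/- over treated WT and 51 and 11 for DKO over miR-146a-/-. No value could be given for the WT share ratio under thinning or with 2 or 3 UMIs of the 4 genes, or for gene counts of such members against WT, where treated WT had 0 to 2 members. No paired analysis was possible because each group had 1 library. The 9 and 12 WT members allow no view of a typical WT cell of this kind, intervals hold counting error only, and cells joined in 1 droplet were not removed beyond the gene limit. Age and treatment changed together between the WT libraries, and genotype and mouse between the treated ones. Free RNA was gauged only roughly in B cells, which may include members and joined cells, and it was not subtracted. The deletion of miR-146a was not checked.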

Other observations

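The IgLON and SoxD families were represented in members almost wholly by the 2 genes of the rule. Lsamp, Ntm, Iglon5 and Sox6 had 0 UMIs in members of every library, Sox13 was seen only in the knockout members and Opcml only in DKO, so neither the sister adhesion genes of Negr1 nor those of Sox5 came with them. Integrin genes other than Itgad summed to 2121, 1948, 2942 and 2934 CPM in members, led by Itga4 in WT and Itgb2 in knockout members. Itgb2, the partner chain of Itgad, stood at 386, 355, 655 and 764 CPM, and Itgax at 160.4, 129.6, 226 and 293 CPM, so both were higher in knockout than in WT members. Genes of red pulp macrophages, which include Pparg and are summed without Itgad, came to 955, 533, 1013 and 1318 CPM, highest in DKO and lowest in treated WT. Lipid handling under Pparg summed to 3455, 4059, 3638 and 3920.1 CPM with Apoe leading, lipid-associated macrophage genes to 5045, 6516, 5265 and 5075 CPM, and iron handling, led by Ftl1, to 9929, 14217, 15395 and 14508 CPM. The lipid handling sums lay close together, but they rested largely on Apoe, at 1866 and 2529 CPM in young and treated WT. In young WT 92.6% of Apoe UMIs came from 1 cell, and in treated WT 42.9%. Of 11 tested genes 3 were higher and 3 lower in treated than in young WT, against 18.4% of all genes past 2-fold. In miR-146a-/- against treated WT 3 of 11 were higher, Pparg among them, and 1 lower, against 13.5%.

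Inflammatory lists varied between libraries. Genes of the immediate-early response, led by Junb, summed to 9542, 8459, 4350.3 and 4658 CPM, NF-kB genes to 4345, 3575, 2720.4 and 2463 CPM, led by Il1b in WT and Nfkbia in knockout members, and chemokines and receptors to 6736, 3983, 2384 and 1278 CPM. The first 2 were lower in the knockout than in the WT libraries, and Ccl5 alone made up 4833, 249.5, 710.0 and 22.8 CPM of the chemokine sums. Interferon-stimulated genes, led by Ifi27l2a, summed to 1086, 3925, 1477 and 1071 CPM and were highest in treated WT, and MHC class II, led by Cd74, to 31186, 38654, 21689 and 12111 CPM and was lowest in DKO. Complement genes, led by C1qb, summed to 4316, 715, 2718 and 2599 CPM, scavenger receptors to 1917, 964, 814 and 1033 CPM and macrophage transcription factors, led by Cebpb, to 5635, 8234, 6859.9 and 6976 CPM. In young WT the top cell of each gene held 98.1% of C1qa, 89.5% of C1qb and 96.6% of C1qc UMIs. Cell cycle genes summed to 1662, 485, 1076 and 849 CPM, and Mki67, a marker of dividing cells, was detected in 22.2, 0, 6.90 and 7.04% of members. Thinned to 2000 UMIs Mki67 was seen in 0, 0, 2.83 and 3.35% of members, and in B cells in 4.98, 10.8, 4.11 and 5.77% unthinned and 1.81, 6.00, 1.37 and 2.59% thinned, so the share in knockout members was near that in B cells.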
